A study of Mus musculus with 12 samples.

Results

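Nitric oxide synthase 2 and the enzymes that compete with it for arginine or act beside it in activated myeloid cells were followed in mouse dendritic cells given the fungal-type β-glucan curdlan. The genes are Nos2, Acod1, Ass1, Arg1 and Arg2. They were taken from the probe sets that the array annotation assigns to 1 of these symbols and to no other gene, and 4 of the 5 had such a probe set, out of 19937 genes measured. Ass1 has no value here, because both of its probe sets also carry the symbol Gm5424. Nos2, Acod1, Arg1 and Arg2 each had 1 probe set.

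Expression was read on 12 arrays of the type Affymetrix Mouse Gene 1.0 ST, and values are RMA values on the log2 scale. The dendritic cells were grown from bone marrow for 7 days with GM-CSF at 200 ng/ml and enriched on CD11c beads to a stated purity above 95%, and 100 ng of total RNA was used. The 4 groups held 3 arrays each: IL-2 knockout cells with curdlan for 6 h, wild-type cells with curdlan for 6 h, untreated knockout cells and untreated wild-type cells. Every array, the wild-type ones included, carries the strain label B6.129P2-Il2tm1Hor/J, so genotype was read from the genotype label and the title. Curdlan binds the receptor Dectin-1. The labels do not say that replicates came from separate animals, so p-values measure only the spread between these samples. A curdlan-treated and an untreated array of 1 genotype with the same replicate number are called a pair below. Cultures grown with GM-CSF are known to hold both dendritic cells and macrophage-like cells.

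Nos2 encodes the inducible enzyme that turns arginine into nitric oxide and citrulline, and it needs the cofactor tetrahydrobiopterin. Ass1, argininosuccinate synthetase, starts the recycling of that citrulline into arginine. Arg1, cytosolic arginase, and Arg2, mitochondrial arginase, instead split arginine into ornithine and urea, and ornithine feeds polyamine and proline synthesis. Acod1 (also called Irg1) makes itaconate from cis-aconitate, an intermediate of the tricarboxylic acid cycle, and itaconate inhibits succinate dehydrogenase. In macrophages Nos2 and Acod1 are known as genes of inflammatory activation, and Arg1 as a gene of alternative activation by IL-4.

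On the mouse assembly GRCm38.p6, Nos2 lies on chromosome 11 at 78920787 to 78960226 and Acod1 on chromosome 14 at 103047012 to 103056573. Arg1 lies on chromosome 10 at 24915207 to 24927470, Arg2 on chromosome 12 at 79130788 to 79156301, and Ass1 on chromosome 2 at 31470270 to 31520670. Of the genes with a value, Acod1 had an entry in the RefSeq promoter table of that build, and its promoter is shown because the gene rose with curdlan in both genotypes. The window chr14:103046762-103047061, on the plus strand, runs from 250 bases before to 50 bases after the annotated start and therefore ends within the transcribed part of the gene. Capitals mark the motif matches.
Acod1 promoter: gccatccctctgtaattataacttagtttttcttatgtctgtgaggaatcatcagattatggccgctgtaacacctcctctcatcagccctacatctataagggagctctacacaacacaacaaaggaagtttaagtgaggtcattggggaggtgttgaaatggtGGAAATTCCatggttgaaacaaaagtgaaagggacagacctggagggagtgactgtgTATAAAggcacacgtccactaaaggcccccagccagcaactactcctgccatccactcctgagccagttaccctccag
The first match, GGAAATTCC at -85 to -77 from the start, fits the NF-kB type motif GGNNNTTCC on both strands, a motif found in 18.5% of 32851 promoters of the same length. The second, TATAAA at -28 to -23, fits the TATA motif, which 13.6% of promoters hold. The interferon response core GAAANNGAA (in 8.56% of promoters), the GAS motif TTCNNNGAA (8.3%), the AP-1 motif TGANTCA (7.81%) and the C/EBP motif TTGCNNAA (10.8%) had no match in this window. Both strands were searched, and a match is a description of letters only.

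Il2, the disrupted gene, read 5.87, 5.80 and 5.63 on the log2 scale in curdlan-treated knockout cells, against 7.80, 7.22 and 6.74 in curdlan-treated wild-type cells. Untreated cells read 6.04, 5.88 and 5.77 in the knockout and 5.56, 5.37 and 5.53 in the wild type. With curdlan every knockout array lay below every wild-type array (log2 fold change -1.48, limma adjusted p = 0.0114), and the call was lost in 5 of 27 alternatives, with adjusted p up to 0.0850, among them those without wild-type curdlan replicate 2 (0.0538), without knockout pair 2 (0.0779), without knockout pair 3 (0.0568) and without wild-type pair 2 (0.0738). The sources used here do not say where the probes lie relative to the disrupted part of Il2.

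Of the dendritic cell markers, 12 of 12 lay above the lower quartile of the arrays in every group, a low bar that most probe sets pass by definition. Among them Cd74, the class II invariant chain, was highest at a mean of 13.20 in curdlan-treated knockout and 13.23 in curdlan-treated wild-type cells. The summed log2 level of the 12 ranged over 129.4 to 131.5 in curdlan-treated and 123.8 to 127.3 in untreated knockout cells. In wild-type cells it ranged over 132.8 to 133.5 with curdlan and 128.2 to 130.5 without. All 10 measured macrophage and monocyte markers were above the lower quartile too. Their sums, 114.1 to 116.7 in curdlan-treated and 114.6 to 117.8 in untreated knockout cells, against 113.4 to 115.2 in curdlan-treated and 114.1 to 116.0 in untreated wild-type cells, overlapped between all groups. Of the other markers, 5 of 11 T and NK cell, 3 of 5 B cell and 5 of 8 mast cell and eosinophil genes lay below the lower quartile in every group. For neutrophil genes the count was 1 or 2 of 11, with Ly6g, the defining one, at a mean of 4.50 in curdlan-treated knockout and 4.42 in curdlan-treated wild-type cells, and Mmp8 at 12.97 and 12.92 in the same groups. Dpp4, a surface peptidase of dendritic cells, was lower in knockout cells (log2 fold change -1.45 untreated and -1.20 with curdlan, limma adjusted p = 0.0134 and 0.0423), calls lost in 7 and 16 of 27 alternatives. The dendritic cell sums did not overlap between treated and untreated arrays of a genotype, or between genotypes at the same treatment. Of the 12 markers, Dpp4 alone was called between genotypes. The sums themselves were not tested, nor was their part in the results below. In bulk RNA, fewer cells of a type and less RNA per cell cannot be told apart.

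Curdlan raised 3 of the 4 measured genes in both genotypes. Nos2 rose most, and its curdlan effect ranked 2 of 19937 genes in knockout cells and 27 in wild-type cells. Acod1 and Arg2 rose less. In the main fit, which leaves the pairs out, Arg1 did not pass the test in either genotype. It was lower with curdlan in every pair. With the pair as a fixed block, though not as a random block, this fall passed the test in knockout cells only. Over all genes, 9.29% were called higher in knockout cells and 7.27% in wild-type cells at an adjusted p under 0.05 (limma's moderated test with Benjamini-Hochberg adjustment).

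Nos2 read 9.15, 11.22 and 8.82 in curdlan-treated knockout cells, against 5.72, 6.22 and 6.02 in untreated knockout cells. In wild-type cells it read 8.65, 8.69 and 8.89 with curdlan, against 6.00, 6.17 and 6.14 without. No treated array overlapped an untreated one, and knockout curdlan replicate 2 stood 2 log2 units or more above every other array. The group means were 9.73 ± 1.30 in curdlan-treated and 5.99 ± 0.26 in untreated knockout cells, and 8.75 ± 0.13 in curdlan-treated and 6.10 ± 0.09 in untreated wild-type cells (SD, n = 3 each).

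The log2 fold change of Nos2 with curdlan was 3.74 ± 0.46 (SE) in knockout cells, or 13.4-fold (limma adjusted p = 0.000343), and 2.64 ± 0.46 in wild-type cells, or 6.25-fold (adjusted p = 0.00237). Without knockout curdlan replicate 2 the knockout value was 3.00 on the log2 scale, still past the test. The order of the 4 groups ran from curdlan-treated knockout through curdlan-treated wild-type and untreated wild-type to untreated knockout cells. The 2 treated groups overlapped, as did the 2 untreated groups. All 6 untreated values lay below the medians of their arrays, between the 35.4 and the 43.9 percentile of the probe sets, and whether signals are compressed there was not tested. The plot of the genes by array shows the 6 pairs.

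**Figure D1:**
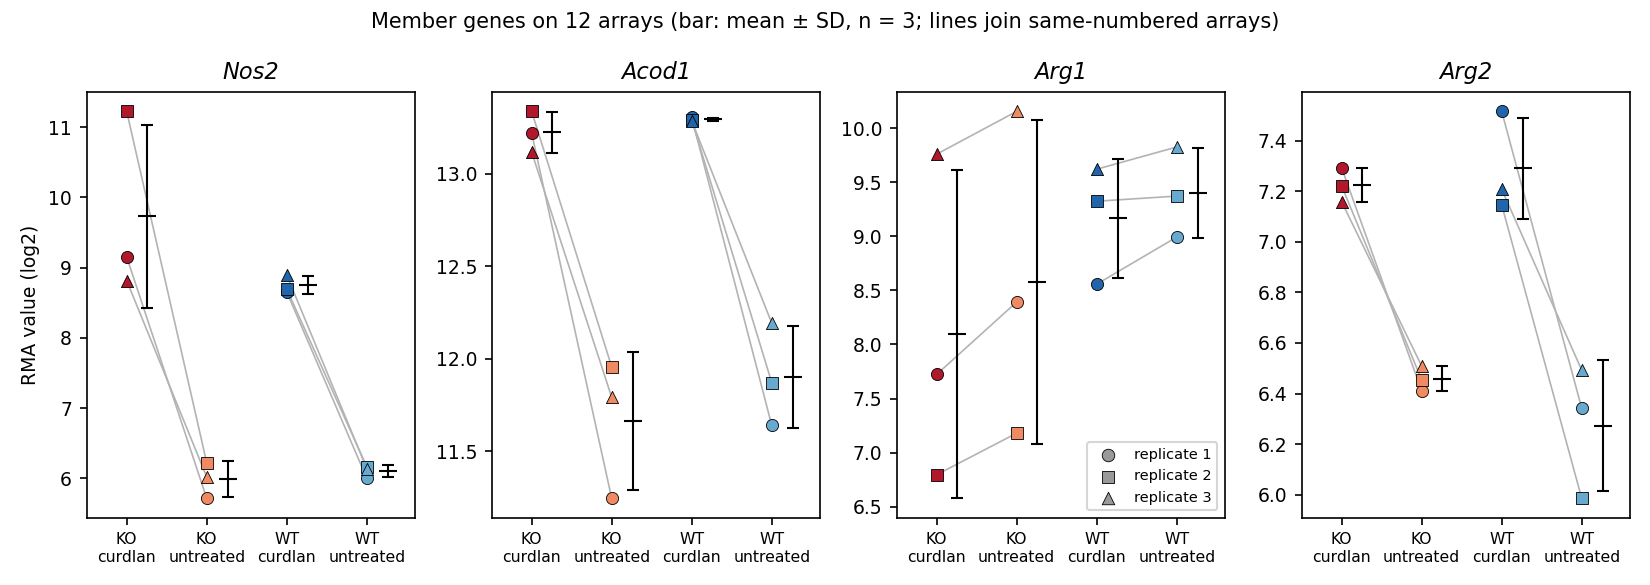
RMA values (log2) of Nos2, Acod1, Arg1 and Arg2 on 12 arrays in 4 groups; symbols give the replicate number, lines join same-numbered arrays and bars give the mean ± SD of 3 arrays. Nos2, Acod1 and Arg2 were higher on every curdlan array than on every untreated array, while Arg1 was spread by replicate, down to 6.80 in curdlan-treated knockout cells.

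Acod1 read 13.22, 13.34 and 13.12 in curdlan-treated knockout cells, against 11.25, 11.96 and 11.79 in untreated knockout cells. Wild-type cells read 13.30, 13.29 and 13.29 with curdlan, against 11.64, 11.87 and 12.19 without. Treated and untreated arrays did not overlap, and the treated arrays lay within a narrow band, with a group SD of 0.11 in the knockout and 0.0099 in the wild type. The spread was wider without curdlan, where the SD was 0.37 in knockout and 0.28 in wild-type cells (n = 3 each).

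The rise of Acod1 was 1.56 ± 0.17 on the log2 scale in knockout cells, or 2.95-fold (limma adjusted p = 0.00014), and 1.39 ± 0.17 in wild-type cells, or 2.63-fold (adjusted p = 0.000247). Acod1 was already high before curdlan, between the 94.3 and the 97.9 percentile of the probe sets of each untreated array. With curdlan it lay between the 99.6 and the 99.8 percentile, close to the highest value in the table, 14.04. Whether the array signal was saturated there was not tested.

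Arg2 read 7.29, 7.22 and 7.16 in curdlan-treated knockout cells, against 6.41, 6.45 and 6.51 in untreated knockout cells. Wild-type arrays read 7.52, 7.15 and 7.21 with curdlan, against 6.34, 5.99 and 6.49 without. Again no treated array overlapped an untreated one, and the untreated values lay below the array medians. The rise was 0.77 ± 0.12 in knockout cells, or 1.70-fold (limma adjusted p = 0.00175), and 1.02 ± 0.12 in wild-type cells, or 2.02-fold (adjusted p = 0.000242). For Acod1 and Arg2 the 2 treated groups overlapped each other, and so did the 2 untreated groups.

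Arg1 differed from the others. It read 7.72, 6.80 and 9.76 in curdlan-treated knockout cells, against 8.39, 7.18 and 10.15 in untreated knockout cells. In wild-type cells it read 8.56, 9.32 and 9.62 with curdlan, against 8.99, 9.37 and 9.82 without. All 4 groups overlapped, and the arrays ordered by replicate: in the knockout, replicate 2 was lowest and replicate 3 highest with and without curdlan, and in the wild type replicate 1 was lowest and replicate 3 highest. The means were 8.09 ± 1.52 in curdlan-treated and 8.58 ± 1.5 in untreated knockout cells, and 9.17 ± 0.55 in curdlan-treated and 9.40 ± 0.42 in untreated wild-type cells (SD, n = 3 each).

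The curdlan effect on Arg1 was -0.48 ± 0.76 in knockout cells (limma adjusted p = 0.657) and -0.23 ± 0.76 in wild-type cells (adjusted p = 0.864). Same-numbered treated and untreated arrays deviated together across genes, so the numbers pair these arrays. Within pairs Arg1 was lower with curdlan in 6 of 6: by -0.67, -0.38 and -0.40 in the knockout and by -0.44, -0.05 and -0.21 in the wild type. With the replicate pair as a fixed block the fall in knockout cells passed the test (adjusted p = 0.00397) and that in wild-type cells did not (adjusted p = 0.0827). With the pair as a random block the knockout p was 0.530. That fit used 1 correlation of 0.261 for all genes, so it could not remove a spread between pairs as large as that of Arg1.

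The spread of Arg1 lay between replicate pairs and that of Nos2 did not. Its SD within groups was 1.12, the rank 7 among 19937 genes, against a median of 0.0997 over genes. Once the pairs were taken out it was 0.13, rank 3766. The SD of Nos2 was 0.67 within groups, rank 34, and 0.57 with the pairs taken out, rank 2, since knockout pair 2 rose by 5.0 with curdlan while pairs 1 and 3 rose by 3.44 and 2.79. The wild-type pairs rose by 2.65, 2.53 and 2.75. Acod1 rose by 1.98, 1.38 and 1.33 in the knockout pairs and by 1.66, 1.42 and 1.09 in the wild-type pairs, and Arg2 by 0.88, 0.77 and 0.65 in the knockout pairs and by 1.17, 1.16 and 0.72 in the wild-type pairs. Knockout pair 2 had the lowest Arg1 of all pairs, and its curdlan array had the highest Nos2.

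Across the 12 arrays, Nos2 correlated with Acod1 at Pearson's r = 0.917 and with Arg2 at 0.861, and Acod1 with Arg2 at 0.915. These points fall into 4 groups, and once the group means were removed the same values were 0.383, -0.0135 and 0.279. Arg1 correlated with Nos2 at -0.377, or -0.551 after removal of the group means, with Acod1 at -0.146 and with Arg2 at -0.209. The correlations are descriptions over arrays that share groups and pairs.

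None of the 4 genes passed the test between the genotypes. Over all genes, 1.42% were called in either direction between untreated knockout and wild-type cells and 0.622% with curdlan. With the replicate number as a block, 699 genes in place of 283 were called in untreated cells, and none of the 4 was among them. Whether curdlan acted differently in the genotypes was asked of the interaction, which subtracts the wild-type curdlan effect from the knockout one. It called 0 genes by limma, 0% of all genes, while 2.77% had an unadjusted p under 0.05.

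Nos2 came closest. In curdlan-treated cells it was 0.98 higher in the knockout than in the wild type on the log2 scale (95% interval -0.02 to 1.98, limma adjusted p = 0.443), rank 7 of all genes. The interaction was 1.10 ± 0.65, rank 3, with a 95% interval of -0.31 to 2.51 and an adjusted p of 1.00. Both rested on 1 array: without knockout curdlan replicate 2 the difference was 0.24 and the interaction 0.35. In untreated cells the difference was -0.12 (adjusted p = 0.984).

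Arg1 was 0.82 lower in untreated knockout cells (log2 fold change -0.82, 95% interval -2.49 to 0.85, limma adjusted p = 0.849) and 1.07 lower with curdlan (log2 fold change -1.07, 95% interval -2.74 to 0.59, adjusted p = 0.664), and single pairs moved these means. Without knockout pair 2 these values were -0.12 and -0.43, and without knockout pair 3 they were -1.61 and -1.91. Acod1 differed by -0.24 untreated and -0.07 with curdlan (adjusted p = 0.760 and 0.931), and Arg2 by 0.18 and -0.07 (adjusted p = 0.720 and 0.902). The intervals for Acod1, -0.60 to 0.13 untreated and -0.44 to 0.30 with curdlan, held no value as large as its curdlan effect. Those for Arg1 are wide enough to hold a difference larger than its curdlan effect.

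**Figure D2:**
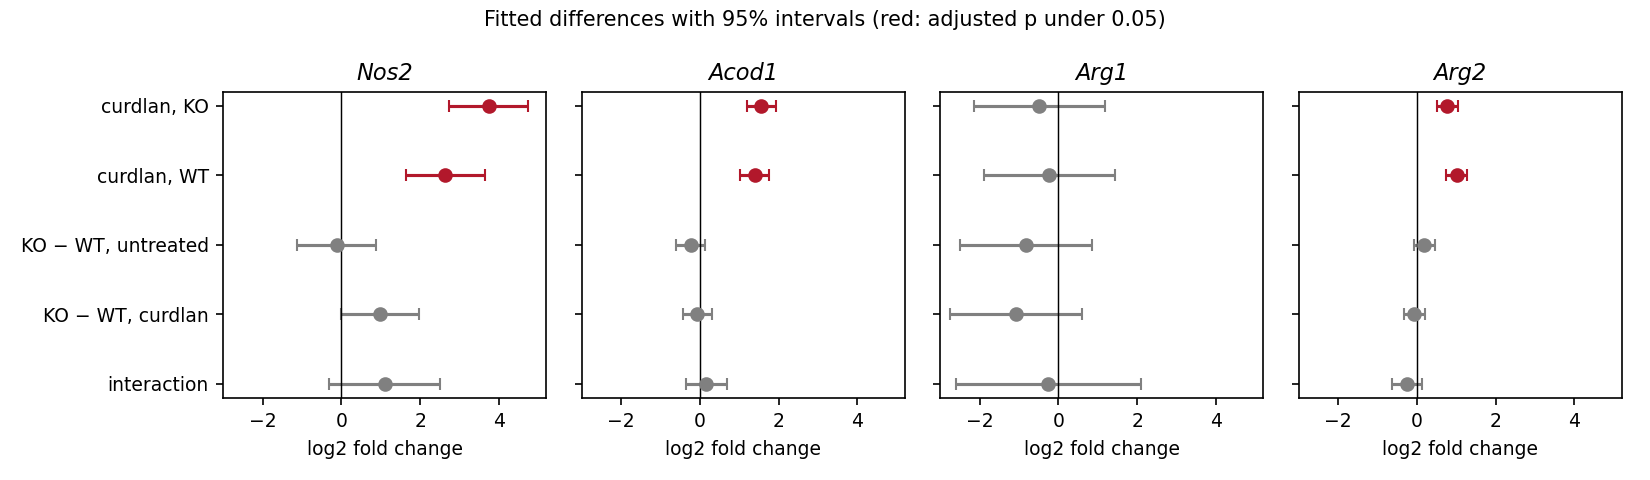
Fitted log2 fold changes of Nos2, Acod1, Arg1 and Arg2 with 95% intervals for the curdlan effect in knockout and wild-type cells, knockout minus wild type without and with curdlan, and the interaction; red marks an adjusted p under 0.05. The curdlan effects on Nos2, Acod1 and Arg2 lie to the right of 0 in both genotypes, and the interval for Nos2 between genotypes with curdlan runs from -0.02 to 1.98.

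Genes whose pattern over the 12 arrays was most like each enzyme's were listed by Pearson's r. For Nos2 they were Rilpl1 (0.986), Parp8 (0.984), Msn (0.98), which encodes the membrane linker moesin, and Phlpp1 (0.979), a phosphatase acting on Akt. Phlpp1 rose by 1.13 in knockout and 1.07 in wild-type cells (limma adjusted p = 0.000166 and 0.000196), and Msn had a log2 fold change of 0.13 in both without passing the test (adjusted p = 0.0535 and 0.0655). For Acod1 they were the interferon-inducible GTPases Gbp5 (0.988) and Gbp7 (0.984), the caspase-8 regulator Cflar (0.983) and the RNA helicase Mov10 (0.982). Gbp5 rose by 2.65 in knockout and 2.01 in wild-type cells (adjusted p = 8.84e-05 and 0.000479).

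Arg2 was most like Ms4a4d (0.981), the neutrophil chemokine Cxcl2 (0.976), B4galt5 (0.975) and the cytokine Osm (0.974). Cxcl2 rose by 1.73 in knockout and 2.00 in wild-type cells (limma adjusted p = 0.000284 and 8.50e-05). The genes most like Arg1 were Slc25a44 (0.963), Dtx4 (0.958), Lima1 (0.952) and Hic1 (0.942). None of these 4 passed the test for curdlan in either genotype. With group means removed their correlation with Arg1 was 0.963 to 0.979, so the likeness lay between replicates. For the genes most like Nos2, Acod1 and Arg2 the same values were 0.889 to 0.94, 0.739 to 0.873 and 0.69 to 0.902. All of these genes were picked on these same arrays.

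Retnla, a secreted protein of alternatively activated macrophages, was also spread by replicate, and it was singled out after its values were seen. It read 4.42, 4.79 and 9.14 in curdlan-treated knockout cells, against 5.02, 4.33 and 9.95 in untreated knockout cells. In wild-type cells it read 6.09, 9.60 and 10.63 with curdlan, against 6.75, 10.06 and 11.15 without. Knockout replicates 1 and 2 lay below the lower quartile of their arrays while replicate 3 lay above the array median, and its SD within groups ranked 4 of all genes. Its knockout minus wild-type difference was -2.89 untreated and -2.65 with curdlan (limma adjusted p = 0.678 and 0.641). Retnla correlated with Arg1 at 0.901 over the 12 arrays, and the eotaxin gene Ccl24 did so at 0.755. Chil3 at -0.00269 and Mrc1 at 0.119, also of the alternative activation list, did not follow Arg1. With group means removed the values were 0.88 for Retnla, 0.697 for Ccl24, 0.272 for Chil3 and 0.0446 for Mrc1. Values for the rest of that list are not given.

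**Figure D3:**
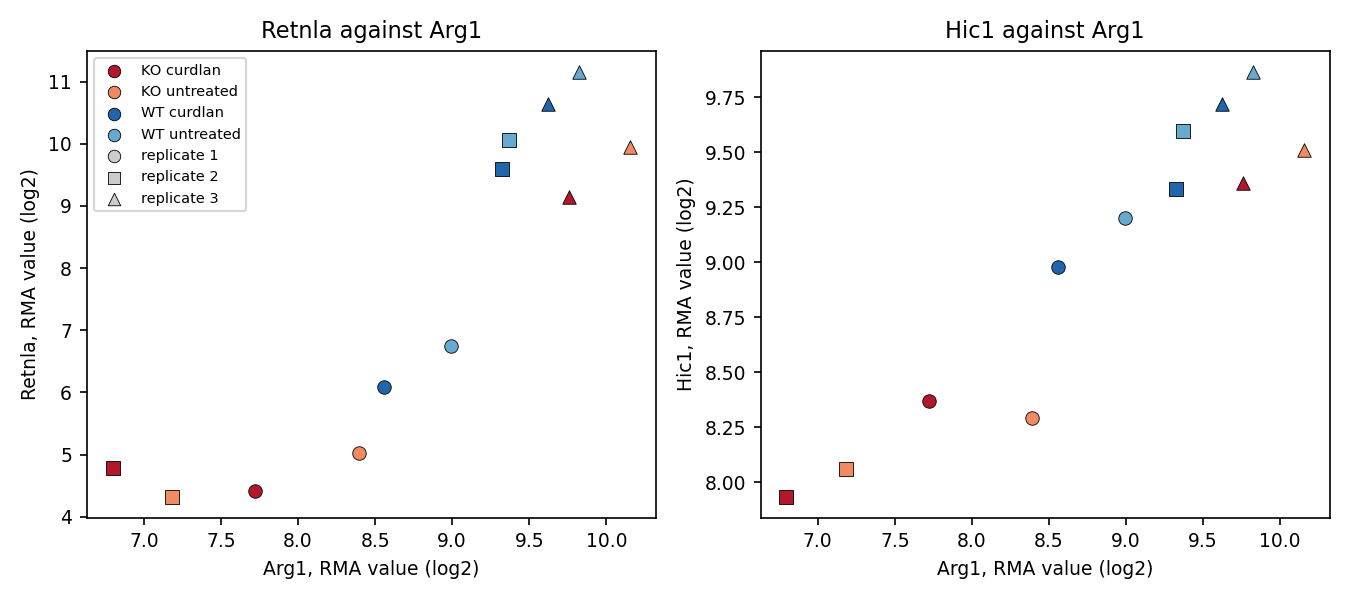
Retnla (left) and Hic1 (right) against Arg1, RMA values (log2), 12 arrays; colour gives the group and symbol the replicate number. Treated and untreated arrays of a replicate lie together, and knockout replicates 1 and 2 hold the lowest Retnla, between 4.33 and 5.02.

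Among the genes around Nos2, tetrahydrobiopterin synthesis was led by Gch1, the GTP cyclohydrolase that catalyses its first and limiting step. Gch1 read 9.78, 10.00 and 9.65 in curdlan-treated knockout cells, against 8.55, 8.54 and 8.70 in untreated knockout cells, and 9.54, 9.71 and 9.65 in curdlan-treated wild-type cells, against 8.30, 8.24 and 8.55 in untreated wild-type cells. It rose by 1.22 in knockout and 1.27 in wild-type cells (limma adjusted p = 2.23e-05 and 1.15e-05), with no overlap. Of the 6 measured genes of this list 1 rose and 2 fell in both genotypes, against 9.29% of all genes higher and 13.2% lower in knockout cells, and 7.27% higher and 12.3% lower in wild-type cells; so few genes cannot be told from these shares. Those that fell were Qdpr, which recycles the cofactor, by 0.32 in knockout and 0.34 in wild-type cells (log2 fold changes -0.32 and -0.34, adjusted p = 0.00766 and 0.0046), and Pts, the second enzyme of the pathway (log2 fold changes -0.24 and -0.24, adjusted p = 0.0239 and 0.0224). The Qdpr calls were lost without knockout pair 1 (adjusted p = 0.0663) and without wild-type pair 2 (0.0676), and those of Pts in 7 of 27 alternatives, so that 0 genes of the list fell in knockout cells without knockout pair 1 and 0 in wild-type cells without wild-type pair 2. The other nitric oxide synthases and their regulators gave 1 call higher and 1 lower of 7 in knockout cells and 0 in wild-type cells. Nos1 and Nostrin were these 2, at adjusted p = 0.0386 and 0.0422, and each lost its call in 14 or 15 alternatives.

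For arginine itself, Slc7a2, the cationic amino acid carrier of activated macrophages, rose by 0.70 in knockout and 0.79 in wild-type cells (limma adjusted p = 1.34e-05 and 3.39e-06). It read 12.91, 12.91 and 12.82 in curdlan-treated knockout cells, against 12.19, 12.16 and 12.17 in untreated knockout cells. The wild-type values were 12.74, 12.70 and 12.73 with curdlan, against 12.01, 11.91 and 11.86 without. Slc7a2 was also the 1 gene of these lists called between genotypes, 0.25 higher in untreated knockout cells (adjusted p = 0.047), a call lost in 18 of 27 alternatives with adjusted p up to 0.274. Of the 6 transport genes 2 rose and 1 fell in knockout cells and 2 rose in wild-type cells, too few to be told from the shares of all genes. Slc3a2, the heavy chain of several amino acid carriers, rose by 0.17 in knockout and 0.22 in wild-type cells (adjusted p = 0.024 and 0.00605), and Slc7a6 was the gene that fell in knockout cells (log2 fold change -0.41, adjusted p = 0.026). Both of these knockout calls were lost without knockout curdlan replicate 2, among other refits.

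Of the 6 genes of the urea cycle and citrulline recycling, 1 fell in both genotypes and 0 rose, a share near the 13.2% of all genes lower in knockout and 12.3% in wild-type cells. It was Slc25a15, the mitochondrial ornithine carrier (log2 fold changes -0.36 in knockout and -0.38 in wild-type cells, limma adjusted p = 0.0166 and 0.0113), and its calls were lost in 6 and 3 of 27 alternatives, among them without knockout pair 1 (0.173) and without wild-type pair 1 (0.0835). Asl, the lyase after Ass1, had a log2 fold change of 0.12 in both without passing the test. Downstream of arginase, 12 of the 18 polyamine and proline genes were measured: 1 rose and 3 fell in knockout cells, and 2 rose and 3 fell in wild-type cells. Over all genes 9.29% were higher and 13.2% lower in knockout cells, and 7.27% higher and 12.3% lower in wild-type cells. So few genes cannot be told from these shares. Srm, spermidine synthase, fell most (log2 fold changes -0.87 and -0.91, adjusted p = 0.00156 and 0.00105), and Azin2, an antizyme inhibitor, rose by 0.47 and 0.51 (adjusted p = 0.000461 and 0.000186). Pycrl, of proline synthesis, fell by 0.35 in knockout and 0.22 in wild-type cells, with limma adjusted p = 0.00421 and 0.037. Oat, ornithine aminotransferase, fell by 0.25 and 0.29 (adjusted p = 0.0262 and 0.013). The Pycrl calls were lost in 1 alternative in knockout cells (without pair 1, adjusted p = 0.0709) and in 12 of 27 in wild-type cells (up to 0.230), and the Oat calls in 9 and 3 of 27 (up to 0.187 and 0.0877). The count of fallen genes was 1 without knockout pair 1 in knockout cells, and 1 without wild-type pair 2 or wild-type curdlan replicate 1 in wild-type cells. With the replicate pair as a block, 2 genes of this list rose in knockout cells.

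Of the tricarboxylic acid cycle, which supplies cis-aconitate to Acod1, 14 of 23 measured genes fell in knockout cells and 13 in wild-type cells. Both counts were lower in some refits and higher in others. These genes of the cycle and of itaconate handling gave 0 rises in either genotype, and the share that fell stands against 13.2% of all genes lower in knockout and 12.3% in wild-type cells. The median log2 fold change was -0.242 in knockout and -0.236 in wild-type cells, against 0.036 and 0.0211 over all genes. Fh1, fumarate hydratase, fell by 0.60 in knockout and 0.64 in wild-type cells (log2 fold changes -0.60 and -0.64, limma adjusted p = 0.000153 and 8.29e-05). Idh3a, a subunit of the NAD-dependent isocitrate dehydrogenase, fell by 0.65 and 0.70 (adjusted p = 0.00317 and 0.00195), and cytosolic Idh1 by 0.66 and 0.51 (adjusted p = 0.0112 and 0.0348). Suclg2, a succinyl-CoA ligase subunit, passed the test in wild-type cells (log2 fold change -0.61, adjusted p = 0.0337) and not in knockout cells (-0.50, adjusted p = 0.0649).

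In knockout cells the count of fallen cycle genes was 5 without knockout curdlan replicate 2, 8 without untreated replicate 1, 7 without untreated replicate 3, and 2, 7 and 9 without knockout pairs 1, 2 and 3. It was 9 without wild-type pair 2. In wild-type cells it was 8 without curdlan replicate 1 or untreated replicate 3, and 6 without any 1 of the 3 wild-type pairs. With the pair as a fixed block it was 17 in knockout and 16 in wild-type cells, as a random block 19 and 16, and with array weights 16 and 18. Calls over all genes moved too. In knockout cells they went from 4481 to 1079 without pair 1, 2041 without curdlan replicate 2 and 6433 with the fixed block. In wild-type cells they went from 3899 to 1841 without pair 1 and 5258 with the fixed block. Idh3a lost its knockout call without knockout pair 1 (adjusted p = 0.0518), and Idh1 did so without that pair (0.0799) and without knockout curdlan replicate 2 (0.0543). The wild-type calls of Idh1 and Suclg2 were lost in 9 and 11 of 27 alternatives, with adjusted p up to 0.166 and 0.214.

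**Figure D4:**
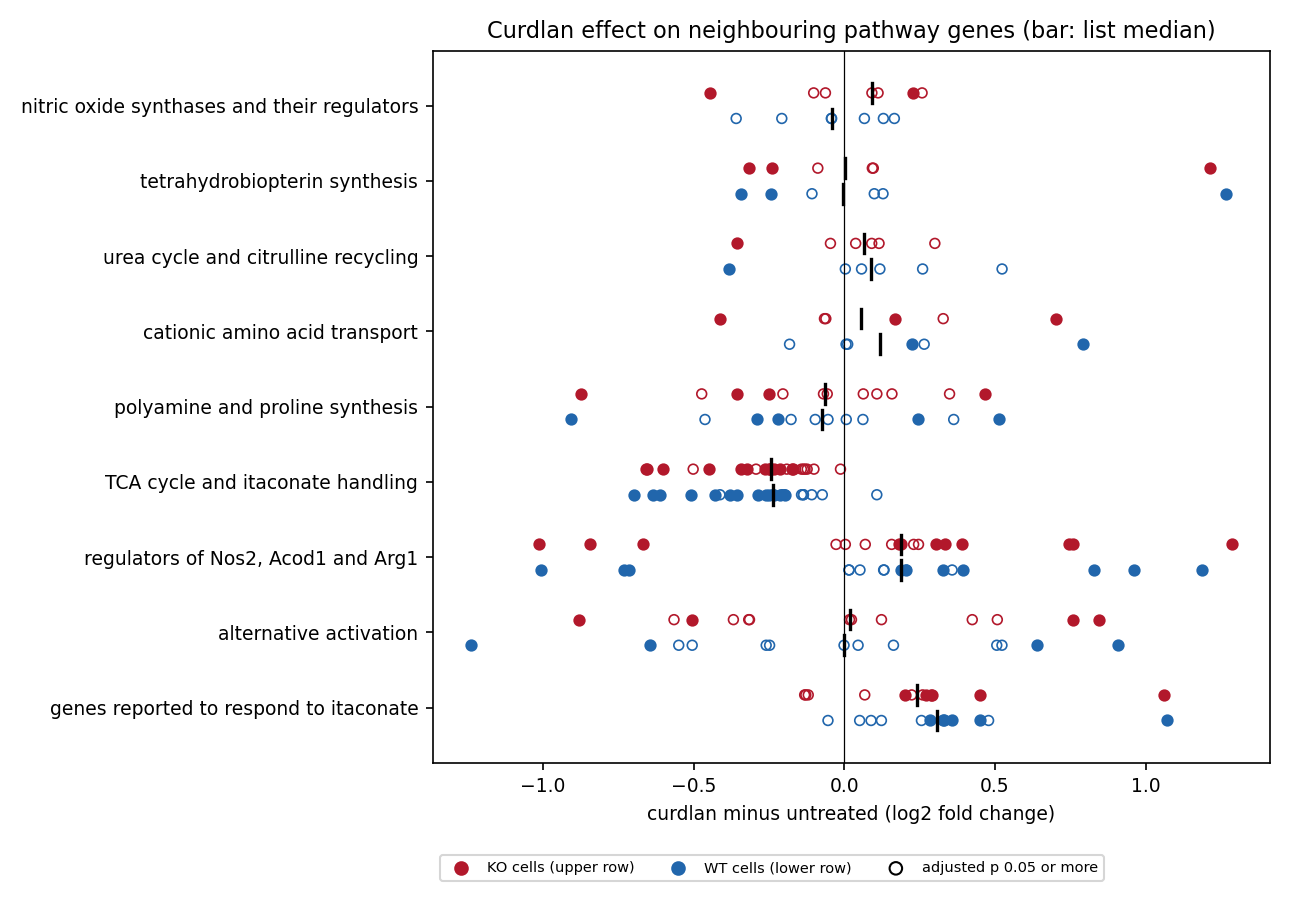
Curdlan minus untreated, log2 fold change, for the genes of 9 lists around the enzymes; the upper row of each list is knockout cells and the lower wild-type cells, filled points have an adjusted p under 0.05, and black bars give the list median. The cycle list lies left of 0, apart from 1 uncalled gene in wild-type cells (Slc25a1, 0.11), with medians of -0.242 in knockout and -0.236 in wild-type cells, and Gch1 stands alone at 1.22 and 1.27 in tetrahydrobiopterin synthesis.

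Of 17 measured regulators of these enzymes, 8 rose and 3 fell in knockout cells and 7 rose and 3 fell in wild-type cells, against 9.29% of all genes higher and 13.2% lower in knockout cells, and 7.27% higher and 12.3% lower in wild-type cells. The share that fell was near that of all genes. Irf1, an interferon regulatory factor needed for Nos2 induction in mouse macrophages, rose by 1.29 in knockout and 1.19 in wild-type cells (limma adjusted p = 0.000114 and 0.000161), and Irf8 by 0.75 and 0.96 (adjusted p = 0.000633 and 9.12e-05). Among alternatives that left out no single array or pair, the rise of Irf1 was as low as 0.84 in knockout and 0.72 in wild-type cells. It was still called. Pparg, a nuclear receptor that takes part in Arg1 expression in macrophages, had log2 fold changes of -1.01 in both (adjusted p = 0.00234 and 0.0021). Klf4, a factor of alternative activation, had -0.85 and -0.71 (adjusted p = 0.0153 and 0.0331), with the knockout call lost in 4 of 27 alternatives (adjusted p up to 0.143) and the wild-type call in 8 (up to 0.187). Ifnb1, interferon beta, had log2 fold changes of 0.25 and 0.02 without passing the test. The number of regulators that rose in knockout cells was 3 without knockout pair 1 and 4 without pair 2 or without curdlan replicate 2, and in wild-type cells it was 4 without wild-type pair 1 or 2. With the replicate pair as a fixed block it was 11 in knockout and 9 in wild-type cells. Calls over all genes were also fewer in these refits without arrays and more with the block.

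Of 13 alternative activation genes 2 rose and 2 fell in each genotype, shares not far from those of all genes (9.29% of all genes higher and 13.2% lower in knockout cells, and 7.27% higher and 12.3% lower in wild-type cells). In wild-type cells 0 of them rose without wild-type pair 1. The lectin Clec10a fell most (log2 fold changes -0.88 in knockout and -1.24 in wild-type cells, limma adjusted p = 0.000168 and 1.06e-05), with the lectin Mgl2 at -0.51 and -0.64 (adjusted p = 0.00312 and 0.000645). The chemokine Ccl22 rose by 0.76 and 0.64 (adjusted p = 0.0032 and 0.0068), and Tgm2, a transglutaminase, by 0.85 and 0.91 (adjusted p = 0.0248 and 0.0179). The wild-type call of Ccl22 was lost without wild-type pair 1 (0.0659), and the calls of Tgm2 were lost in 8 and 6 alternatives. With the replicate pair as a block 4 rose and 5 fell in each genotype.

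Of 12 genes reported to respond to itaconate or to the factor Nrf2, 6 rose and 0 fell in each genotype, against 9.29% of all genes higher in knockout and 7.27% in wild-type cells, with list medians of 0.24 in knockout and 0.31 in wild-type cells. Nfkbiz, which encodes the inducible nuclear regulator IκBζ, rose by 1.06 and 1.07 (limma adjusted p = 0.00275 and 0.00227). Keap1, the inhibitor of Nrf2, rose by 0.45 in both (adjusted p = 0.00394 and 0.00339), the cystine carrier Slc7a11 by 0.29 and 0.36 (adjusted p = 0.00178 and 0.000404), and the stress factor Atf3 by 0.27 and 0.33 (adjusted p = 0.00609 and 0.00193). Without knockout pair 1, 2 of the 12 rose in knockout cells, and Keap1 and Atf3 were not among them (adjusted p = 0.0610 and 0.0562). In that refit calls over all genes also fell, from 4481 to 1079. With the replicate pair as a fixed block 8 of the 12 rose in each genotype. Itaconate itself was not measured. The list gives no direction for the reported response of each gene, so its counts do not tell whether itaconate acted. In untreated cells and with curdlan, none of the genes of these lists other than Slc7a2 was called between knockout and wild type.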

How the data were processed

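The authors deposited log2 values, made with RMA per the submitters' processing notes, a method that corrects background, equalises array distributions and summarises probes. The sources used here give no version of it. Of 34760 probe sets, 21640 carried exactly 1 symbol in the platform's annotation, giving 19937 genes; for 954 genes with several the probe set with the highest mean was used. No filter or further normalisation was applied. Array medians lay between 6.59 and 6.64 and lower quartiles between 5.08 and 5.15, no 2 arrays were identical, and for arrays their number limits the precision.

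The main model, with 4 group means over the 12 arrays, was run in limma 3.58.1 (R 4.3.3, 8 residual degrees of freedom, two-sided moderated test, Benjamini-Hochberg adjustment over 19937 genes per contrast, threshold 0.05). Fold changes are log2 differences with the SE of the fit. The fit was tested on simulated data made without replicate pairs, which cannot show how it behaves where arrays are paired.

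The members, gene lists and rules were chosen with earlier results of these data known. Named genes were the members, up to 4 called genes with the largest change per list and any called between genotypes, the highest and lowest cell markers, Il2 and the 4 genes most correlated with each member, without predicted genes. Promoter sequences are from RefSeq (GRCm38.p6).

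After removal of group means, same-numbered curdlan and untreated arrays correlated across genes at 0.486, 0.526 and 0.604 in the knockout and 0.45, 0.368 and 0.404 in the wild type, against -0.479 to 0.0625 for other numbers. This pairing comes from the data, not the labels. Same-numbered knockout and wild-type arrays correlated at 0.218, 0.105 and 0.254 untreated, and at 0.166, -0.134 and 0.328 with curdlan, where the numbers do not pair them.

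Alternatives were the compared arrays alone, a fixed or random replicate block, repeated quantile normalisation or median centring, dim genes left out, averaged probe sets, array weights, another variance model, and each array or pair left out. The fixed block was the pair for the curdlan effects and the interaction. For the differences between genotypes it was the replicate number, shared by both genotypes. The random block was the pair throughout.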

Additional observations from a re-analysis of the deposited data

Results flagged for a closer look

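For Il2, the 3 knockout pairs were lower with curdlan (by -0.17, -0.08 and -0.14 on the log2 scale) and the 3 wild-type pairs higher (by 2.23, 1.86 and 1.21). The knockout effect, -0.13 (95% interval -0.56 to 0.31, limma adjusted p = 0.652), did not pass the test, and all knockout values lay below the array medians, while the wild-type effect of 1.77 did (adjusted p = 0.000159). The interaction, the knockout curdlan effect less the wild-type one, was -1.89 ± 0.28 (SE) and did not pass the test (limma adjusted p = 0.357, the smallest of all genes).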

How the results depend on the processing

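Over 27 alternatives Nos2, Acod1 and Arg2 kept their direction and call for curdlan in both genotypes. Their adjusted p lay between 2.62e-06 and 0.00959 in knockout and 9.30e-07 and 0.0289 in wild-type cells for Nos2, between 2.84e-05 and 0.00418 and between 3.29e-05 and 0.00673 for Acod1, and between 0.000366 and 0.0378 and between 4.36e-05 and 0.00428 for Arg2. With the fixed replicate block Arg1 passed in knockout cells (log2 fold change -0.483, adjusted p = 0.00397); the block changed no other member's call. Some uncalled differences changed sign when arrays or pairs were left out. Arg1 with curdlan ranged over -1.32 to 0.306 in knockout and -0.456 to 0.0753 in wild-type cells, and -1.09 to 0.535 for the interaction. These Arg1 values changed sign only when a single array was left out, so that its partner stayed unmatched. Every pair was lower with curdlan, so leaving out a whole pair kept the sign of the curdlan effect. Nos2 between untreated genotypes ranged over -0.234 to 0.0196, and Acod1 for the interaction over -0.042 to 0.314. Arg2 between genotypes with curdlan ranged over -0.138 to 0.0473, and was 0.0589 with array weights. The cause of the sign changes outside Arg1 was not tested. Calls over all genes ranged over 1079 to 6699 for curdlan in the knockout (4481 as reported), 1841 to 5780 in the wild type (3899), 9 to 699 between untreated genotypes (283), 15 to 1402 with curdlan (124) and 0 to 3 for the interaction (0). The 1079 came without knockout pair 1 and the 1841 without wild-type pair 1. Lower counts of a gene list in those refits are therefore not particular to that list. Over the comparisons in which other named genes were called, 2018 refitted values kept the call, 220 lost it and 0 changed sign; uncalled values of these genes were not followed.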
